A study of Mus musculus with 18 samples.

Results

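The genes described here encode the pore-forming subunits of AMPA and kainate receptors, the fast glutamate-gated cation channels of the retina. They were taken by symbol from the count files, as Gria1, Gria2, Gria3 and Gria4 for the AMPA receptor and Grik1, Grik2, Grik3, Grik4 and Grik5 for the kainate receptor, which makes 9 of the 35006 gene names in each file. The rule used gene symbols alone, but it was set with earlier results of these data known. All 9 were read in every one of the 18 libraries and passed the filter on low counts.

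Retinal poly(A) RNA of male mice was sequenced in 4 groups. WT mice were normoglycemic C57BL/6J animals (3 libraries), and WT + NACET mice were of the same strain and received NACET (6 libraries). Akita mice (C57BL/6-Ins2Akita/J) carry a spontaneous mutation of the insulin 2 gene that misfolds the hormone and damages the pancreatic beta cells, so that they are a monogenic model of insulin-deficient diabetes (4 libraries), and Akita + NACET mice were of this genotype and received NACET (5 libraries). NACET, the ethyl ester of N-acetylcysteine, is a cell-permeant thiol antioxidant. It was dissolved at 0.33 mg/mL in what the treated mice drank, with an intended intake of 50 mg/kg per day, whereas control mice drank water. Treatment ran from 4 weeks of age, when mice were assigned to a group, to 24 weeks. All groups shared the sex and the strain background, and diabetes was represented by 1 mutant line. The labels number the replicates within a group without tying them to named animals, so the tests measure the spread between these libraries.

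Glutamate is the transmitter of photoreceptors, bipolar cells and ganglion cells. OFF bipolar cells, horizontal cells, amacrine cells and ganglion cells receive it through AMPA and kainate receptors, which are tetramers, whereas ON bipolar cells use a metabotropic receptor. GluA2, the product of Gria2, makes AMPA receptors impermeable to calcium, because its transcript is edited in the codon of a pore residue known as the Q/R site, where a genomic glutamine codon is read as arginine. GluK1 to GluK3, from Grik1 to Grik3, form kainate receptors on their own, and GluK4 and GluK5, from Grik4 and Grik5, join them as high-affinity subunits.

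The coding windows around the Q/R site are shown because the relation among the 9 subunits is seen there. Each window is 30 bases of the mm9 coding strand, 5′ to 3′, with the codon of the Q/R site in capitals.

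Gria1: ggggccttcatgCAGcaaggatgtgacatt

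Gria2: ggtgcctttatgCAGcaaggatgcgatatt

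Gria3: ggtgcttttatgCAGcaaggatgtgatatt

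Gria4: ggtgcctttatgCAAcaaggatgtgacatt

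Grik1: ggagctctcatgCAGcaaggatcggagctg

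Grik2: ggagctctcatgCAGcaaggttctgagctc

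Grik3: ggctccctgatgCAGcaaggatctgaactg

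Grik4: ggaggcttcatgCAGcaaggctccactatt

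Grik5: ggtggcttcatgCAGcagggctcggagatc

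The Gria windows lie within 1 exon each, at chr11:57056584-57056613 on the plus strand (Gria1, exon 11 of 16), chr3:80510818-80510847 on the minus strand (Gria2, exon 11 of 17), chrX:38963430-38963459 on the plus strand (Gria3, exon 11 of 15) and chr9:4464122-4464151 on the minus strand (Gria4, exon 12 of 17). The windows of Grik4 at chr9:42355691-42355720 (exon 16 of 21) and Grik5 at chr7:25807501-25807530 (exon 15 of 20), both on the minus strand, were likewise uninterrupted. Those of Grik1, Grik2 and Grik3 crossed a splice junction, between exons 11 and 12 of 16, 13 and 14 of 17, and 12 and 13 of 16. Every genomic codon read glutamine. The window of Gria2 differed from that of Gria3 at 2 bases, from Gria4 at 3, from Gria1 at 4 and from the Grik windows at 7 to 10. Gene counts hold no base calls, so the edited share of any transcript was not measured.

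The genes are large and mostly intronic. In mm9, Grik2 (chr10:48819266-49508572) spans 689.3 kb with 8.27 kb of annotated exons, Gria4 (chr9:4417899-4796234) 378.3 kb with 6.27 kb, Gria1 (chr11:56824889-57143746) 318.9 kb with 6.04 kb and Gria2 (chr3:80488858-80606713) 117.9 kb with 6.96 kb. Grik5 (chr7:25794872-25857388) is the one member shorter than 100 kb, at 62.5 kb. The counting ignored strand, but no annotated gene on the opposite strand shared exon bases with a member. On the same strand, annotated miRNA genes overlapped exons of Gria2 by 29 bases, of Gria3 by 91 and of Gria4 by 16, and those entries held 227, 0 and 10 counts over all libraries.

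Gene counts without ribosomal RNA genes were 11495596 to 17814479 per library, and levels are given as CPM, counts per 1000000 of a library size scaled by TMM, the edgeR method that lines up the bulk of genes between libraries. The scaling factor was 0.994 to 1.089 in WT, 0.930 to 1.033 in WT + NACET, 0.803 to 0.970 in Akita, lowest in replicate 4, and 1.022 to 1.134 in Akita + NACET, so CPM and every fold change are relative to this scaling. Rod markers such as Gnat1 (8426 to 24551 CPM) were abundant in every library, as in retina. Some libraries stood apart before any comparison. Akita replicate 4 had the highest summed rod marker level (54690 CPM, against 25717 to 48421 in the other libraries), the lowest amacrine sum (407 CPM against 516 to 880) and the lowest ganglion cell sum (671 CPM against 973 to 2090). Lens crystallin markers summed to 23124 CPM in WT + NACET replicate 5, 2772 CPM in Akita replicate 2, 1225 CPM in Akita + NACET replicate 3 and 338 CPM in Akita + NACET replicate 5, and to at most 59.0 CPM elsewhere. The share of uniquely placed reads that fell outside annotated exons was 14.9 to 17.1% in WT, 9.55 to 16.6% in WT + NACET, 9.67 to 13.3% in Akita and 14.3 to 19.8% in Akita + NACET.

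To compare genes with each other, CPM was divided by the kilobases of annotated exon. Over the 18 libraries Grik1 (10.6 ± 3.32 CPM per kb, SD) and Gria2 (10.2 ± 3.09) had the highest levels, and Grik1 exceeded Gria2 in only 10 of 18 libraries, so these neighbours did not separate. Gria4 followed at 8.10 ± 1.65 CPM per kb, below Gria2 in 15 of 18 libraries. Gria1 (5.11 ± 1.04) and Gria3 (2.24 ± 0.52) came next, each below the preceding gene in 18 of 18 libraries. Grik5 (0.815 ± 0.244 CPM per kb) and Grik2 (0.642 ± 0.196) lay close together, with Grik5 higher in 12 of 18 libraries. Grik4 (0.231 ± 0.0532 CPM per kb) and Grik3 (0.0914 ± 0.0348) were the lowest, with 10 to 28 and 2 to 23 counts per library. The place of Grik1 rests on an exon annotation of 3.33 kb, the shortest of the 9, and would fall if the true transcript were longer.

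In Akita retinas, transcripts of all 4 AMPA receptor subunits and of the kainate subunit gene Grik2 were lower than in WT, to between 0.505 and 0.666 of the WT level. With NACET, the same 5 transcripts and Grik1 were higher in Akita mice, by 1.45- to 1.88-fold. In whole-retina RNA, fewer cells of a type and less RNA per cell cannot be told apart. Gria1 to Gria4, Grik1 and Grik2 belong to a glutamate receptor list that the study chose on these same samples, so the counts of called members are not independent evidence of a direction.

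**Figure D1:**
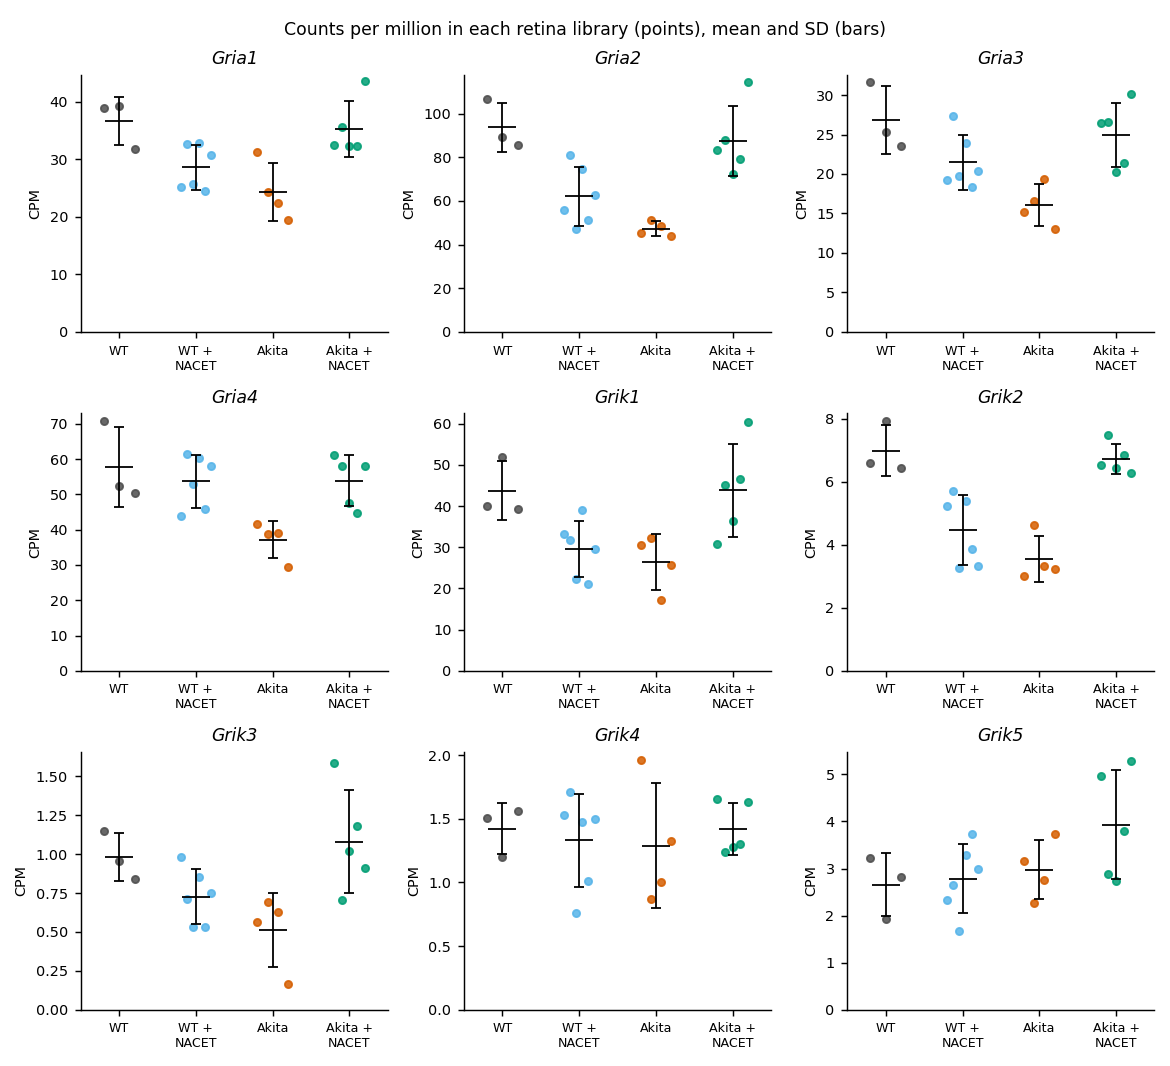
CPM of each of the 9 genes (vertical axis, from 0) in every library (points) by group, with the mean and SD as bars. For Gria2 the 4 Akita libraries lie between 44.0 and 51.4 CPM, below all 3 WT and all 5 Akita + NACET libraries, whereas for Grik5 the 4 groups overlap.

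Gria2, which sets the calcium permeability of AMPA receptors, changed most among the Gria genes. It stood at 107, 89.5 and 85.4 CPM in the WT libraries and at 45.3, 51.4, 48.7 and 44.0 CPM in the Akita libraries. In Akita + NACET it stood at 83.4, 88.1, 72.4, 79.2 and 114 CPM, and in WT + NACET at 47.3 to 81.1 CPM (median 59.3). Every Akita library was thus below every WT and every Akita + NACET library, the WT + NACET libraries were also all below WT, and 2 of those 6, at 47.3 and 51.1 CPM, lay inside the Akita range. Gria2 fell by 0.99 on the log2 scale in Akita vs WT (SE 0.17, edgeR adjusted p = 0.0117) and rose by 0.89 in Akita + NACET vs Akita (SE 0.15, adjusted p = 0.0152).

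Gria1 encodes GluA1, whose C-terminal phosphorylation is a classical site of synaptic plasticity. It stood at 38.9, 39.3 and 31.9 CPM in WT and at 31.3, 24.4, 22.4 and 19.5 CPM in Akita. In Akita + NACET it stood at 32.6, 35.6, 32.3, 32.4 and 43.6 CPM. The groups lay close without overlapping, since the highest Akita library (31.3 CPM) was just below the lowest WT library (31.9 CPM) and the lowest Akita + NACET library (32.3 CPM). Gria1 fell by 0.59 in Akita vs WT (log2, SE 0.15, adjusted p = 0.0274) and rose by 0.53 in Akita + NACET vs Akita (SE 0.13, adjusted p = 0.0243).

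Gria3, an X-linked subunit gene, stood at 31.7, 25.3 and 23.5 CPM in WT, at 15.1, 16.6, 19.4 and 13.1 CPM in Akita, and at 26.5, 26.6, 20.3, 21.4 and 30.1 CPM in Akita + NACET. All Akita libraries were below both other groups. Gria3 fell by 0.74 (log2, SE 0.16, adjusted p = 0.0168) and rose by 0.63 with NACET (SE 0.15, adjusted p = 0.0206). Gria4, whose product forms AMPA receptors with very fast kinetics, stood at 70.9, 52.4 and 50.3 CPM in WT, at 41.5, 38.7, 39.0 and 29.4 CPM in Akita and at 61.1, 58.1, 47.5, 44.8 and 58.1 CPM in Akita + NACET. Again no Akita library reached another group. Gria4 fell by 0.64 (log2, SE 0.15, adjusted p = 0.0218) and rose by 0.54 (SE 0.13, adjusted p = 0.0235).

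The makeup of the AMPA receptor transcripts was described as the share of each gene in the summed CPM per kb of the 4 Gria genes. The sum itself was 28.0 to 36.3 CPM per kb in WT, 15.6 to 19.9 in Akita, 25.4 to 36.0 in Akita + NACET and 20.6 to 29.6 in WT + NACET. Gria2 made up 42.2 to 43.9% of it in WT and 32.8 to 40.6% in Akita, so that its share as well as its level was lower in every Akita library. In Akita + NACET the Gria2 share was 40.2 to 45.7%, which overlapped both groups, and in WT + NACET it was 31.7 to 39.4%, below every WT library. Gria4 had 33.0 to 39.3% in WT + NACET against 27.6 to 31.2% in WT. Gria3 had 7.74 to 10.4% in all libraries. These shares are of transcripts and not of assembled receptors.

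**Figure D2:**
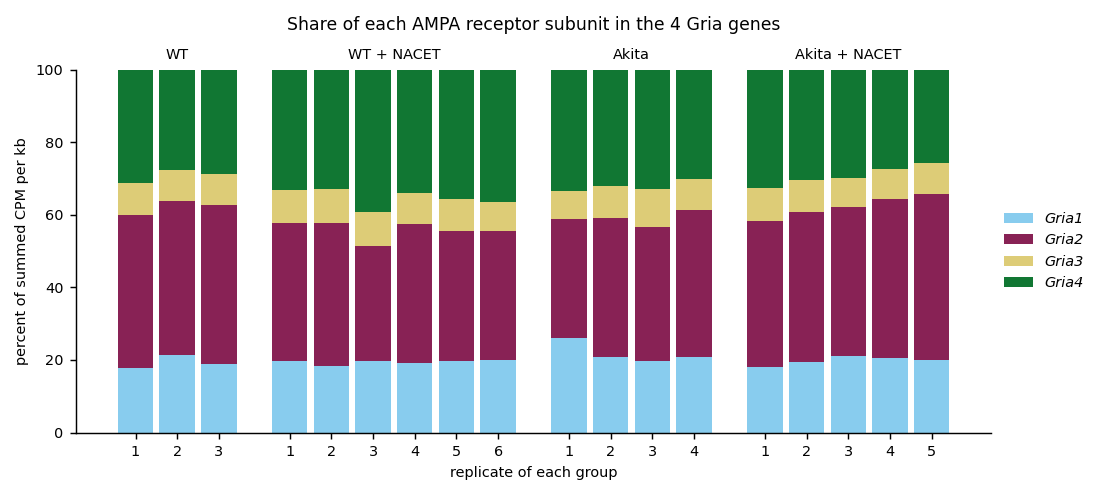
Percent of the summed CPM per kb of the 4 Gria genes taken by each gene (stacked to 100% on the vertical axis), 1 bar per library, by group. The Gria2 share is 42.2 to 43.9% in WT, 32.8 to 40.6% in Akita, 40.2 to 45.7% in Akita + NACET and 31.7 to 39.4% in WT + NACET.

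Among the kainate receptor genes, Grik2 (GluK2) showed the clearest separation. It stood at 6.61, 7.91 and 6.44 CPM in WT and at 3.02, 4.63, 3.33 and 3.23 CPM in Akita. In Akita + NACET it stood at 6.55, 7.48, 6.45, 6.84 and 6.27 CPM, and in WT + NACET at 3.26 to 5.72 CPM (median 4.54). All WT and Akita + NACET libraries were above all Akita and all WT + NACET libraries, from 39 to 127 counts each. Grik2 fell by 0.97 in Akita vs WT (log2, SE 0.20, adjusted p = 0.0165) and rose by 0.91 in Akita + NACET vs Akita (SE 0.18, adjusted p = 0.0161).

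Grik1 encodes GluK1, the kainate subunit through which several OFF bipolar cell types receive cone input. It stood at 39.9, 52.0 and 39.3 CPM in WT and at 30.6, 32.1, 17.1 and 25.8 CPM in Akita, without overlap. In Akita + NACET it was spread from 30.7 to 60.3 CPM (30.7, 45.1, 36.4, 46.6 and 60.3), and its lowest library lay inside the Akita range. The difference of -0.73 in Akita vs WT (log2, SE 0.24) did not pass the test (adjusted p = 0.0686), whereas Grik1 rose by 0.73 in Akita + NACET vs Akita (SE 0.22, adjusted p = 0.0425). Grik3 rested on few counts, at 16, 12 and 14 in the WT libraries, 8, 12, 10 and 2 in the Akita libraries and 23, 12, 16, 19 and 14 in Akita + NACET. In CPM its Akita libraries did not overlap those of the other 2 groups, but neither the difference of -0.89 in Akita vs WT (SE 0.38, adjusted p = 0.142) nor that of 1.02 in Akita + NACET vs Akita (SE 0.34, adjusted p = 0.0581) passed.

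Neither high-affinity subunit gene passed the test in any comparison. Grik4 stood at 1.20 to 1.57 CPM in WT, 0.869 to 1.96 in Akita and 1.24 to 1.65 in Akita + NACET, with a log2 difference of -0.16 in Akita vs WT (95% interval -0.81 to 0.49) and 0.15 in Akita + NACET vs Akita (-0.42 to 0.72). Grik5 stood at 1.92 to 3.23 CPM in WT, 2.26 to 3.73 in Akita and 2.74 to 5.29 in Akita + NACET, with log2 differences of 0.15 (-0.45 to 0.75) and 0.41 (-0.11 to 0.92). Both Grik4 intervals hold the called changes of Gria1, Gria3 and Gria4, so changes of that size in Grik4 were not excluded. The intervals do not reach the larger called changes of Gria2 and Grik2, nor that of Grik1 with NACET. For Grik5 the interval in Akita vs WT ends at -0.45, short of the -0.59 of Gria1, while that with NACET reaches 0.92. Whether the members differ from each other in response was not tested.

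Read against all genes, 5 of 9 members were called lower in Akita vs WT (adjusted p of at most 0.05) where 3.68% of the 16183 genes tested were, and 6 of 9 were called higher in Akita + NACET vs Akita where 4.51% were. In 7 of 9 members all Akita libraries lay below all WT libraries, against 12% of genes tested, and in 6 of 9 all Akita + NACET libraries lay above all Akita libraries, against 6.69%. The 2 comparisons share the Akita libraries, so they are not separate evidence. The median log2 difference of the members was -0.73 in Akita vs WT and 0.63 in Akita + NACET vs Akita, beside -0.01 and 0.00 over all genes tested.

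The calls depended on single libraries. In Akita vs WT, leaving out WT replicate 1 or WT replicate 2 left 0 of 9 members called, and leaving out Akita replicate 4, the library with the highest rod sum, left 2 (Gria2 and Grik2). At an unchanged sign, the Gria2 difference was then -0.88, -1.02 and -0.95 (log2, edgeR adjusted p = 0.0972, 0.0544 and 0.0340), and 0 of all genes tested were called in the first 2 of these fits. In Akita + NACET vs Akita, 0 members and 1 gene in all were called without Akita replicate 4, with Gria2 at 0.85 and Grik2 at 0.87 (both adjusted p = 0.0567). Without Akita + NACET replicate 5, which had the highest Gria1, Gria2, Gria3, Grik1 and Grik5 of its group, 2 members were called, with Gria2 at 0.77 (adjusted p = 0.0361) and Grik2 at 0.94 (adjusted p = 0.0467), and 3 were called without Akita + NACET replicate 2. Of the libraries with lens markers, Akita replicate 2 left 5 and 6 members called in the 2 comparisons when it was omitted, and Akita + NACET replicate 3 left 6 in the latter. Akita + NACET replicate 5, which also had lens markers, left 2 in the latter, as given above. Without WT + NACET replicate 5, which had the highest lens sum, 1 member was called in Akita + NACET vs WT + NACET, against 2 with every library.

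**Figure D3:**
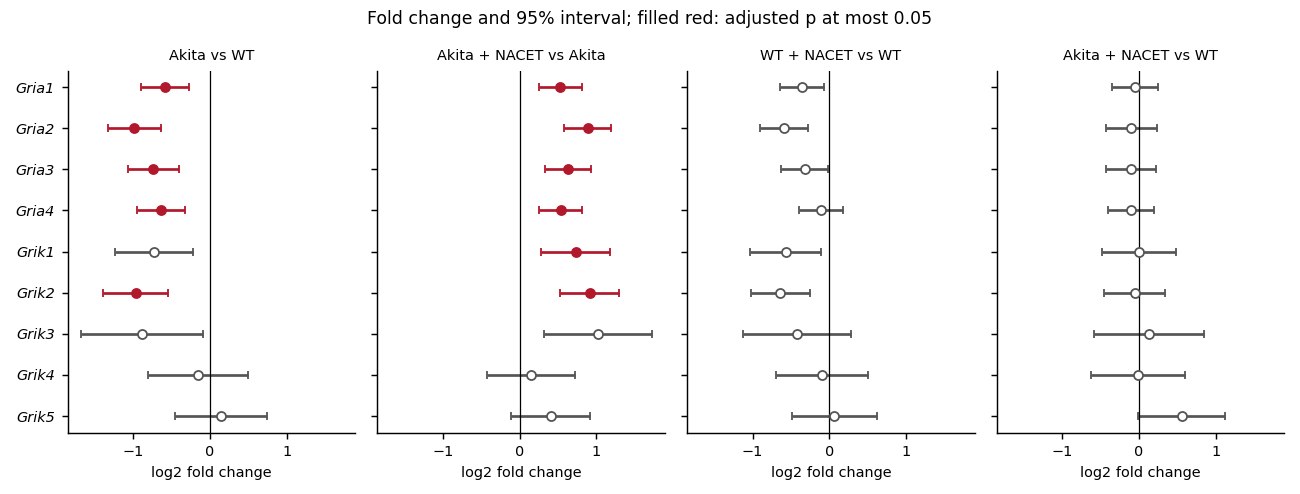
Log2 fold change (horizontal axis) with its 95% interval for the 9 genes in 4 comparisons, from the fit over 18 libraries, filled red where the adjusted p was at most 0.05. The filled genes number 5 in Akita vs WT and 6 in Akita + NACET vs Akita, and none in the comparisons of WT + NACET and of Akita + NACET with WT.

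Against WT, the Akita + NACET group showed 0 members called, where 0.00618% of genes tested (1 gene) was called in either direction. At an unadjusted p under 0.05 the count of members was also 0, where 750 of 16183 genes had such a p, and DESeq2 called 0 members. Differences in the Gria genes were -0.05 to -0.10 on the log2 scale, and the intervals give what could have been missed. For Gria2 the difference was -0.10 (95% interval -0.43 to 0.23), a level 0.742 to 1.17 times that of WT. For Grik2 it was -0.05 (-0.45 to 0.34), and for Grik1 0.00 (-0.48 to 0.49). Grik5 had the largest value, 0.56 (-0.02 to 1.13).

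In WT mice, NACET went with lower values of most members. Gria2 differed by -0.59 (log2, SE 0.15, edgeR adjusted p = 0.0539), Grik2 by -0.64 (SE 0.18, adjusted p = 0.0764), Grik1 by -0.57 (SE 0.22, adjusted p = 0.172), Gria1 by -0.36 and Gria3 by -0.32. With edgeR, 0 of 9 members were called, where 1.48% of genes tested were called in either direction. An unadjusted p under 0.05 was found for 5 members and for 3162 of the 16183 genes tested. DESeq2 called 2 members lower in either fit. These were Gria2 and Grik2 with all groups in the fit, where 705 of 15327 genes were called either way. With the groups compared only they were Gria2 and Grik1, where 938 of 14379 genes were. The libraries of Gria2, Grik1 and Grik2 did not overlap between WT + NACET and WT, against 5.18% of genes tested with all WT + NACET libraries lower.

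Whether the response to NACET differed between genotypes was tested as the interaction, the change with NACET in Akita minus that in WT. It was positive and passed the test for 7 of 9 members, where 10.1% of genes tested were called positive. It was 1.55 for Grik2 (log2, SE 0.26, adjusted p = 0.00176), 1.48 for Gria2 (SE 0.21, adjusted p = 0.000724), 1.44 for Grik3, 1.30 for Grik1, 0.95 for Gria3, 0.89 for Gria1 and 0.64 for Gria4. For Grik4 it was 0.25 (95% interval -0.58 to 1.07) and for Grik5 0.34 (-0.41 to 1.10). Between 5 and 7 members were called when any 1 library was left out. Compared directly under NACET, Akita mice had higher Gria2 (0.49, SE 0.13, adjusted p = 0.0203) and Grik2 (0.59, SE 0.16, adjusted p = 0.0222) than WT mice, and 6.01% of genes tested were called higher. Grik2 alone of the 9 did not overlap between these groups, against 3% of genes tested.

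AMPA and kainate receptors work with auxiliary subunits, assembly factors, scaffolds and RNA editing enzymes. Of 31 such genes, 30 were tested (Shisa8 was not matched by name). In Akita vs WT 8 of 30 were called lower and 0 higher, where 3.68% of all genes tested were called lower. In Akita + NACET vs Akita 8 were called higher and 0 lower, where 4.51% of all genes tested were called higher. The median log2 difference of the 30 was -0.51 and 0.47, beside -0.01 and -0.003 over all genes tested. The genes called in both were Cacng2, Prrt1, Grip1, Grip2 and Adarb1. These counts fell to 1 and 0 without Akita replicate 4, and 0 were called in Akita vs WT without WT replicate 1 or 2 and 1 in Akita + NACET vs Akita without Akita + NACET replicate 5.

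Cacng2 encodes stargazin, the prototype auxiliary subunit that brings AMPA receptors to the synapse. It stood at 19.0 to 25.3 CPM in WT, 12.5 to 15.7 in Akita and 19.3 to 22.7 in Akita + NACET, and Akita overlapped neither. It fell by 0.61 in Akita vs WT (log2, SE 0.19, edgeR adjusted p = 0.0492) and rose by 0.59 with NACET (SE 0.17, adjusted p = 0.0331). Prrt1, another AMPA receptor auxiliary protein, fell by 0.61 (adjusted p = 0.0458) and rose by 0.66 (adjusted p = 0.0223). Of the kainate auxiliary subunits, Neto2 rose with NACET in Akita by 0.87 (adjusted p = 0.0496), while its difference of -0.73 in Akita vs WT did not pass (adjusted p = 0.128), and Neto1 passed in neither.

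Grip1 and Grip2 encode PDZ scaffolds that bind the GluA2 and GluA3 tails. Grip1 stood at 27.8 to 37.1 CPM in WT, 16.2 to 22.2 in Akita and 26.7 to 34.2 in Akita + NACET, and in WT + NACET at 28.5 to 34.8 CPM, unlike Gria2 within the WT range. It fell by 0.63 (log2, SE 0.13, adjusted p = 0.0155) and rose by 0.61 (SE 0.11, adjusted p = 0.0161). Grip2 fell by 1.12 (adjusted p = 0.0260) and rose by 0.83 (adjusted p = 0.0457). Pick1, the other PDZ partner of GluA2, differed by only -0.11 and 0.00, and Nsf, an ATPase that binds GluA2, by 0.20 and -0.20, none of which passed.

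Adarb1 encodes ADAR2, the enzyme that edits the Q/R codon capitalised in the Gria2 window above. It stood at 117 to 161 CPM in WT, 89.6 to 101 in Akita and 121 to 158 in Akita + NACET, so its Akita libraries were also below both groups. Adarb1 fell by 0.53 in Akita vs WT (log2, SE 0.15, edgeR adjusted p = 0.0377) and rose by 0.49 with NACET (SE 0.13, adjusted p = 0.0297). Of the NMDA receptor genes, the third class of ionotropic glutamate receptor, 6 of 7 were tested, of which 2 were called lower in Akita vs WT and 2 higher in Akita + NACET vs Akita, where 3.68% and 4.51% of all tested genes were called in these directions. Both counts were 0 without Akita replicate 4. The first was also 0 without WT replicate 1 or 2 or Akita replicate 1 or 3, and the second without Akita + NACET replicate 2 or 5. Grin1 and Grin2b are also on the glutamate receptor list of the study, so these NMDA counts are not independent evidence of a direction.

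**Figure D4:**
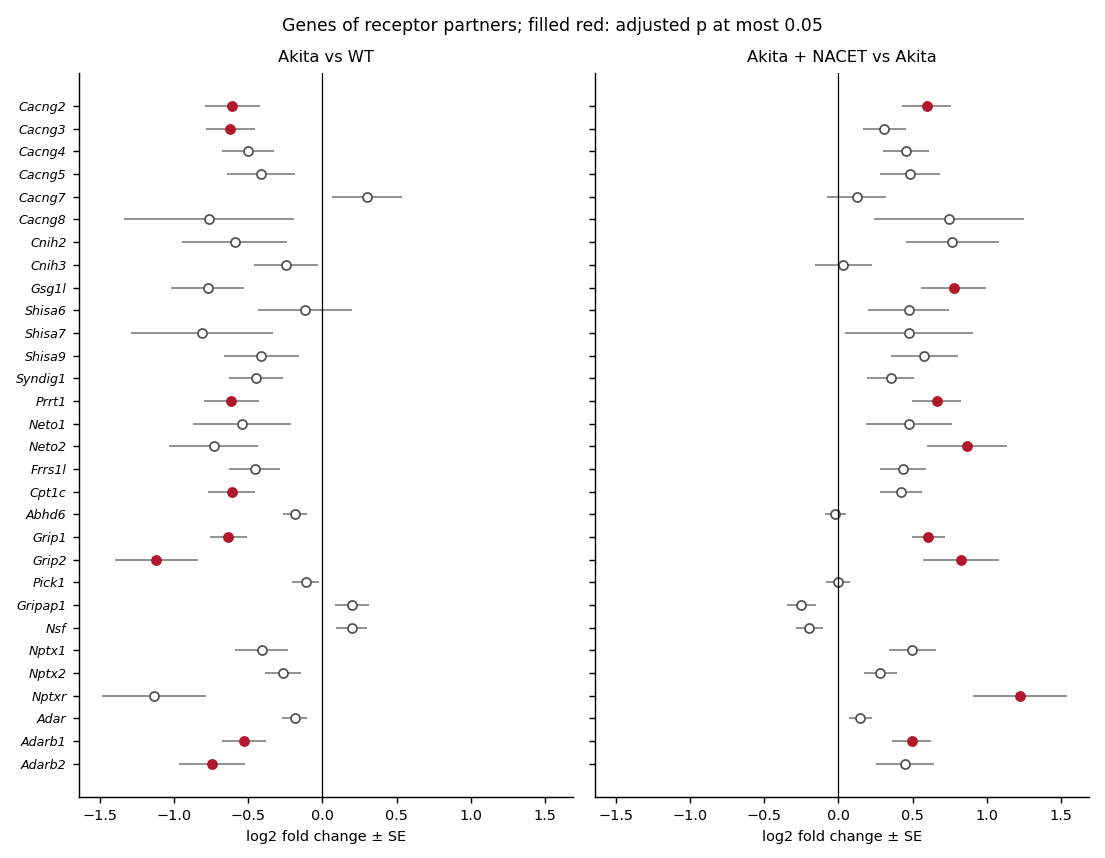
Log2 fold change with its SE (horizontal axis) for the 30 tested partner genes in Akita vs WT (left) and Akita + NACET vs Akita (right), filled red where the adjusted p was at most 0.05. The 8 filled genes on the left all lie below 0 and the 8 on the right all above 0, while Pick1 lies at -0.11 and 0.00.

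The levels of 7 of the 9 members moved with the share of uniquely placed reads outside annotated exons. What this share reflects in these libraries cannot be told from the counts and was not tested. Over the 18 libraries the correlation of log2 CPM with this share was r = 0.864 (Spearman's rho 0.882) for Gria2, 0.859 (0.854) for Grik1, 0.856 (0.822) for Grik2, 0.83 (0.868) for Gria1, 0.759 (0.796) for Gria3, 0.599 (0.635) for Grik3 and 0.549 (0.573) for Gria4. Permutation p-values adjusted over the 9 genes were 0.023 or lower for these 7 genes, and for Gria2 4.5e-05 for r and 6e-05 for rho. The permutations ran over all 18 libraries without regard to group, so these p-values take in the differences between groups. For Grik4 r was 0.467 (rho 0.385, permutation p = 0.0506 and 0.115, adjusted p = 0.0569 and 0.130) and for Grik5 0.268 (rho 0.162, p = 0.283 and 0.521). Without the 2 libraries with the most extreme shares, r was 0.685 to 0.890 for the 7 genes. The groups differ in this share, and within the 6 WT + NACET libraries, the one group large enough, r was 0.656 for Gria2 (exact permutation p = 0.175) and 0.965 for Grik2 (exact permutation p = 0.0111, adjusted p = 0.1 over 9 genes). For the other members r within this group ran from 0.0473 for Grik5 to 0.682 for Gria3, with 0.359 for Gria1 and 0.135 for Gria4. None of the 9 passed after adjustment.

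**Figure D5:**
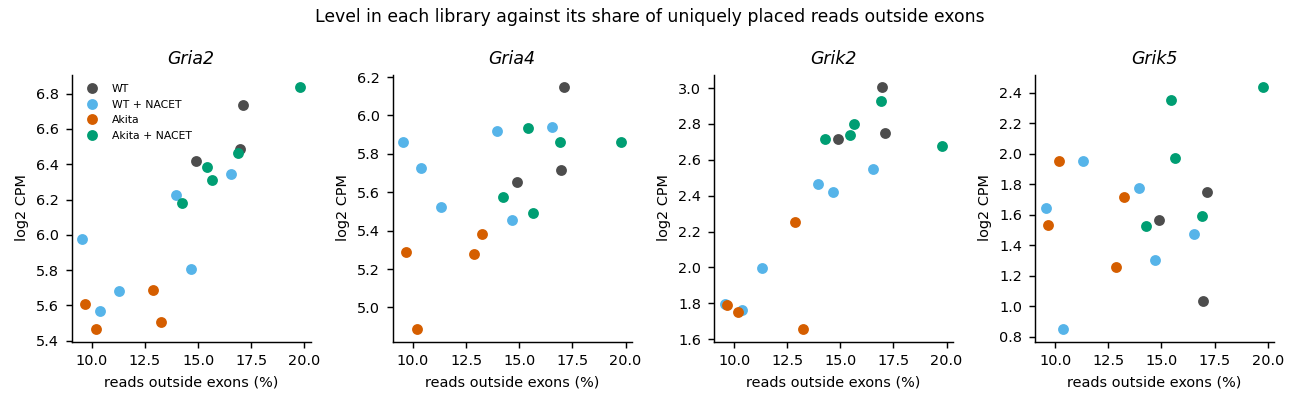
Log2 CPM of Gria2, Gria4, Grik2 and Grik5 (vertical axes) against the percent of uniquely placed reads outside annotated exons (horizontal axes), 1 point per library, coloured by group. For Gria2 and Grik2 the libraries with larger shares have higher levels (r = 0.864 and 0.856), for Gria4 less so (0.549) and for Grik5 little (0.268).

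With this share as a covariate in the edgeR fit, 0 of 9 members were called in Akita vs WT and in Akita + NACET vs Akita, and 0 of all 16183 genes were, nor any partner gene. In the interaction 0 members and 17 genes were called. The fitted Gria2 difference was then -0.61 in Akita vs WT (adjusted p = 0.273) and 0.49 in Akita + NACET vs Akita (adjusted p = 0.628), and that of Grik2 -0.58 (adjusted p = 0.319) and 0.53 (adjusted p = 0.628). All 4 Akita libraries had a lower share than all 3 WT and all 5 Akita + NACET libraries, so genotype or treatment and this share cannot be told apart in these comparisons. Gene span also went with direction. Of genes spanning at least 100 kb, 8.16% were called lower and 4.2% higher in Akita vs WT, against 2.91% and 3.96% of shorter genes, and in Akita + NACET vs Akita 10.9% were called higher and 3.11% lower, against 3.43% and 5.54%. The 8 members other than Grik5 are in the long class, and the part of span in their values was not tested.

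Markers of retinal cell types moved too. Of all genes tested, 3.68% were called lower and 3.96% higher in Akita vs WT, and 5.14% lower and 4.51% higher in Akita + NACET vs Akita. The marker calls also depended on single libraries. In Akita vs WT 0 genes of any kind were called without WT replicate 1 or 2. In Akita + NACET vs Akita 1 gene in all was called without Akita replicate 4. Rod markers (7 genes, fitted differences above 0 for 7 of 7 in Akita vs WT, of which 1 was called higher, and 4 called lower in Akita + NACET vs Akita) summed to 29062 to 40089 CPM in WT, 37616 to 54690 in Akita, 25717 to 34853 in Akita + NACET and 35657 to 48421 in WT + NACET. Amacrine markers, of cells that carry AMPA and kainate receptors, were called lower for 7 of 9 genes in Akita vs WT and higher for 4 of 9 in Akita + NACET vs Akita, and summed to 659 to 880 CPM in WT, 407 to 579 in Akita, 619 to 759 in Akita + NACET and 516 to 710 in WT + NACET. Ganglion cell markers (11 genes, 0 called in either comparison) summed to 1335 to 2090 CPM in WT, 671 to 1608 in Akita, 1163 to 1744 in Akita + NACET and 973 to 2013 in WT + NACET. Their fitted differences were below 0 for 11 of 11 in Akita vs WT (median log2 -0.41) and above 0 for 11 of 11 in Akita + NACET vs Akita (0.28). Of the markers of bipolar (9 genes) and horizontal cells (5 genes), 0 were called in these comparisons. In Akita vs WT, 7 of 9 bipolar and 4 of 5 horizontal cell markers had fitted differences below 0. In Akita + NACET vs Akita, 8 of 9 and 5 of 5 were above 0. Bipolar sums were 657 to 893 CPM in WT, 429 to 709 in Akita, 568 to 915 in Akita + NACET and 506 to 771 in WT + NACET, and horizontal cell sums were 184 to 205, 119 to 176, 158 to 243 and 153 to 244 CPM. Cone markers (7 genes, 0 called in Akita vs WT and 4 called lower in Akita + NACET vs Akita) summed to 2640 to 3351 CPM in WT, 2729 to 4071 in Akita, 2035 to 2601 in Akita + NACET and 2785 to 4120 in WT + NACET. Mueller glia markers (7 genes, 2 called lower in Akita vs WT and 1 higher in Akita + NACET vs Akita) summed to 2303 to 3067 CPM in WT, 1329 to 2473 in Akita, 2040 to 2445 in Akita + NACET and 2417 to 3018 in WT + NACET, with the lowest sum in Akita replicate 4. Of 4 endothelial markers, Cldn5 was called lower in Akita vs WT and higher in Akita + NACET vs Akita, and their sum was 73.1 to 98.2 CPM in WT and 51.2 to 79.6 CPM in Akita. Of 5 microglia and 5 pigment epithelium markers, 0 were called in these comparisons. The pigment epithelium markers still had large fitted differences, below 0 for 5 of 5 in Akita vs WT (median log2 -1.31). In Akita + NACET vs Akita they were above 0 for 4 of 5 (median 1.97). Their sum was 495 to 951 CPM in WT, 273 to 547 in Akita, 410 to 941 in Akita + NACET and 624 to 1743 in WT + NACET. Of the markers of these retinal cell types, Cdh5, an endothelial gene, was the one at 0 counts in any library. The part of cell makeup in the members' values was not tested.

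Beyond the groups, the members varied together to unequal degrees. After group means were removed, r of log2 CPM over the 18 libraries was 0.593 to 0.840 for the 6 pairs of Gria genes, highest for Gria2 and Gria3. Over all 36 pairs of members the median r was 0.336, 9 pairs lay above 0.5 and 14 below 0.2, and the lowest was -0.176, for Grik2 and Grik5. All of these values come from the same libraries and share their depth and composition. Among 11299 genes with a mean of at least 5 CPM, the one most like Gria2 over the 18 libraries was Kcnd3, a potassium channel gene (r = 0.973), followed by Hcn3 (0.960) and Ptprd (0.960). For the other members the leading genes were Mtus2 for Gria1 (0.948), Tnc for Gria3 (0.960), Gprasp1 for Gria4 (0.930), Prickle2 for Grik1 (0.942), 2410137F16Rik for Grik2 (0.942) and Zfp618 for Grik3 (0.860). The second gene most like Grik1 was Grm5, a metabotropic glutamate receptor gene (0.941). Grik4 and Grik5 had no close match, with Spsb4 at 0.724 and Trpc1 at 0.802. Counting noise limits r where counts are few. The mean count per library was 12.6 for Grik3, 20.7 for Grik4 and 47.6 for Grik5, against 1083 for Gria2. Low values of r that involve these 3 genes are therefore not a measure of how the genes vary together.

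Promoters of 6 members (250 bases before to 50 after the RefSeq start, GRCm38.p6) were searched on both strands. The reasons were that NACET is studied as an inducer of NRF2 and that most members moved in the same direction between groups. The core of the antioxidant response element bound by NRF2, TGACNNNGC, was in 0 of the 6 and in 12.4% of 32851 promoters. The cAMP response element TGACGTCA was in 0 of 6 and in 1.79% of all. The GC box GGGCGG was in those of Grik3, Grik4 and Grik5 and in none of Gria2, Gria4 and Grik2, against 35.7% of all. Gria2, Gria4 and Grik2 were called both in Akita vs WT and in Akita + NACET vs Akita. Grik3, Grik4 and Grik5 were called in neither. The promoter of Grik3, which was called in the interaction, had 7 boxes, more than that of Grik4 or Grik5. Whether GC boxes go with the calls was not tested. The promoters of Gria2, a called gene, and Grik5, which was called in no comparison, are shown as examples without and with GC boxes. Boxes on either strand are in capitals.

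Gria2, chr3:80802786-80803085, minus strand: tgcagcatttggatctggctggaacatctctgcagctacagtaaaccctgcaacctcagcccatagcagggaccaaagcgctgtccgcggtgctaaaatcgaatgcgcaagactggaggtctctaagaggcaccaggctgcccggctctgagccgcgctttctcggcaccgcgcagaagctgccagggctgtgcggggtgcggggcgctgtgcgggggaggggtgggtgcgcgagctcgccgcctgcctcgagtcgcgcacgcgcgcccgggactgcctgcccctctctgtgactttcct

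Grik5, chr7:25072320-25072619, minus strand: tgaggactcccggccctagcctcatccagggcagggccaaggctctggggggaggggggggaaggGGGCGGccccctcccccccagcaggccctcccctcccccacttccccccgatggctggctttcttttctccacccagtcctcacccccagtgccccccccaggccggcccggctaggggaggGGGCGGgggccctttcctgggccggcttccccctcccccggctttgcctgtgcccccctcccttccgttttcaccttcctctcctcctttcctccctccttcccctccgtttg

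These 300 bases are 65.7% G or C in Gria2 and 72.0% in Grik5, against a median of 52.7% over all promoters. A match is a description of letters, and its absence from this window says nothing of NRF2 elsewhere in the gene.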

How the data were processed

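Retinal poly(A) RNA of 18 libraries was measured. Per the study's methods, the authors made TruSeq v2 libraries, sequenced them single end, placed the reads on mm9 with TopHat 2.1.0 and counted exonic reads of each gene in HTSeq 0.11.2 without strand, leaving out those with several placements. The deposited values are these raw counts, 1 file per library. An entry without a gene name (0.00544% of gene counts) and 206 ribosomal RNA genes (0.977%) were left out here. Of the gene names, 33643 (96.1%) were found in the mm9 annotation (GENCODE).

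The members and lists were chosen with earlier results of these data known. Comparisons used edgeR 4.0.16 with its quasi-likelihood test (R 4.3.3, TMM, minimum count 10, minimum total 15, robust), with the 4 groups in 1 fit, and Benjamini-Hochberg adjustment over the 16183 genes tested. A gene was called when its adjusted p was 0.05 or lower, whatever its fold change. Intervals are 95% and from the same fit. Levels are CPM over TMM-scaled library sizes (12064435 to 17620341) of gene counts without ribosomal RNA genes, which were 11495596 to 17814479 per library, so members with few counts are the least precise. Correlations used log2 CPM with a prior count of 2 and 100000 permutations (scipy 1.17.1) or, within 6 libraries, all pairings. Alternatives were DESeq2 1.42.0, the method of the study, other scaling, filters and sample sets, a replicate block, a covariate and each library left out. The fit was tested on simulated data. All members were named, as were partner genes called in both Akita comparisons. Neto1, Neto2, Pick1 and Nsf were named after their values were seen. No replicate pair agreed within sampling noise. A rod marker is not reported here and was left out of the rod sums.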

Additional observations from a re-analysis of the deposited data

Results flagged for a closer look

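The effect of NACET differed between genotypes for 7 of the 9 subunit genes, by the interaction test in edgeR over 16183 genes. The interaction on the log2 scale was 0.89 for Gria1 (adjusted p = 0.00578), 1.48 for Gria2 (adjusted p = 0.000724), 0.95 for Gria3 (adjusted p = 0.00578), 0.64 for Gria4 (adjusted p = 0.0251), 1.30 for Grik1 (adjusted p = 0.0101), 1.55 for Grik2 (adjusted p = 0.00176) and 1.44 for Grik3 (adjusted p = 0.0394). In each of the 7 genes the fitted change with NACET was above 0 in Akita and below 0 in WT, and it was called in Akita for 6 of them and in WT for 0. The share of reads outside exons, which was lower in WT + NACET than in WT on average (12.7% against 16.3%) and higher in Akita + NACET than in Akita (16.4% against 11.5%), crossed in the same way, and with it as a covariate 0 of the 7 interactions were called.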

How the results depend on the processing

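The groups of 3 to 6 libraries limited every comparison. Scaling by DESeq2 size factors and keeping ribosomal RNA genes left the counts of called members at 5 in Akita vs WT and 6 in Akita + NACET vs Akita. The DESeq2 test called 6 members in each of these comparisons in either fit, with Grik1 added in Akita vs WT. With all groups in the fit it called 2080 of 15327 genes either way in Akita vs WT and 2387 of 15327 in Akita + NACET vs Akita. With the groups compared only it called 1156 of 13962 and 1775 of 15340. In Akita vs WT, 1 member was called by edgeR with the groups compared only, 3 with the replicate block and 0 once the outside-exon share was a covariate, and 0 to 5 when a library was left out. In Akita + NACET vs Akita, 2 were called with the replicate block, 0 with the covariate and 0 to 6 with a library left out. In WT + NACET vs WT, 2 were called by DESeq2 with all groups and 2 with the groups compared only, 1 with a mean count of at least 50 (which left 6 members tested) and 0 to 2 with a library left out. In Akita + NACET vs WT + NACET, 0 were called with the covariate and 1 to 3 with a library left out, the count falling to 1 without WT + NACET replicate 3 or 5 or Akita + NACET replicate 2 or 5. In the interaction 0 were called with the covariate. No setting called a member in Akita + NACET vs WT, and the replicate block changed no further count of members by over 1.5 times.

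Differences called in the main test kept their direction under every alternative that was run, and those that changed sign were never called. With the covariate, Grik4 was at 0.18 in Akita vs WT, at -0.21 for Akita + NACET vs Akita and at 0.14 for WT + NACET vs WT, where Gria4 was at 0.015. With the replicate block, Grik5 was at -0.20 in WT + NACET vs WT. With a library left out, Grik5 ranged from -0.032 to 0.31 in Akita vs WT and from -0.12 to 0.22 in WT + NACET vs WT, Grik4 from -0.0099 to 0.42 in Akita + NACET vs Akita and from -0.20 to 0.014 in WT + NACET vs WT, and Gria4 from -0.20 to 0.065 in WT + NACET vs WT. Same-numbered libraries of different groups did not deviate together (r of -0.33 to 0.34 over 22 pairs, 4 above 0.1), so the numbers were not taken as pairs. The cause of these changes was not tested. Grik3, with 2 to 23 counts per library, and Grik4, with 10 to 28, are limited by depth.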
